A study of Homo sapiens with 18 samples.

Results

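FaDu is an established squamous carcinoma line of the hypopharynx without human papillomavirus (HPV), and the comparison described here is that of its post-hypoxic with its non-hypoxic cells. The libraries were chosen by their titles: 9 of the 18 libraries of the series are of FaDu cells, 4 non-hypoxic (replicates 1 to 4) and 5 post-hypoxic (replicates 1 to 5). All 9 came from FADU-hfm cells, that is FaDu cells transduced with a hypoxia fate-mapping system, so both groups carry the reporter. The cells had been grown as spheroids in ultra-low attachment plates, taken apart with trypsin and separated on a cell sorter into DsRed-positive cells, called non-hypoxic, and GFP-positive cells, called post-hypoxic. Both fractions were then kept in normoxia before RNA was extracted, and libraries were made with a QuantSeq 3′ kit, which counts the poly(A) ends of transcripts. The comparison asks which transcripts still differ between the fractions after their return to normal oxygen. The other 9 libraries are of SCC154-hfm cells, an HPV-positive line carrying the same system, in 5 non-hypoxic and 4 post-hypoxic replicates. FaDu was the only HPV-negative line measured, no source used here says whether it was one clone, and nothing in the labels says that replicates were separate cultures or sorts, so p-values measure the spread between these libraries, which may be technical.

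In low oxygen, the α subunits of the hypoxia-inducible factors (HIFs) escape hydroxylation by the EGLN enzymes and degradation, pair with ARNT and bind the hypoxia response element of their target genes. The targets carry the cell's adaptation: glucose uptake and glycolysis (SLC2A1, HK2, LDHA), a brake on mitochondrial pyruvate use (PDK1), blood vessel growth (VEGFA), pH control (CA9) and mitophagy (BNIP3). Fate-mapping reporters of this kind use a HIF-driven recombinase that cuts out the red gene and leaves green fluorescence on, so a green cell records a past response to low oxygen and not its present state. Head and neck squamous carcinomas are often poorly oxygenated, and hypoxia in them is known for resistance to radiation.

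The 9 FaDu libraries held 1895511 to 2503573 counts each, so that 1 CPM (counts scaled to the size of the library) stood for 1.90 to 2.5 counts, and 12291 genes were tested. Each of the 10 squamous epithelium markers had counts in FaDu, and together they summed to 2850 to 3290 CPM in non-hypoxic and 3040 to 3360 CPM in post-hypoxic libraries. Of the fibroblast markers 3 of 10 had any count (summed 1.73 to 3.48 CPM against 1.64 to 5.04), of the endothelial markers 5 of 8 (0.946 to 3.47 against 1.63 to 3.70) and of the immune markers 4 of 10 (2.15 to 6.46 against 1.37 to 3.16). PTPRC, CD3E, PDGFRA, PDGFRB, COL3A1 and KDR were at 0 in all FaDu libraries. Mitochondrial messenger RNA made up 0.903% to 1.33% of counts in non-hypoxic and 0.883% to 1.215% in post-hypoxic libraries, and was lower in the post-hypoxic member of 4 of 4 same-numbered pairs.

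The genes described most closely here are TK1, PM20D2, LINC02582, IGF2BP1 and INHBA, which were called in some fits and not in others. RefSeq promoter entries (GRCh38.p14) were at hand for 3 of the 7 genes called in the paired fit below, TK1, PM20D2 and INHBA, and for 10 of 12 genes of the response to low oxygen. The windows searched ran from 250 to 51 bases before the transcript start, a length of 200 bases. Sequences are shown for the called genes because they let the letters of a HIF site be looked for in genes that differ between the fractions, with BNIP3 as a textbook target for comparison. They read 5′ to 3′ on the gene's strand. Capitals mark the core of the hypoxia response element (ACGTG or GCGTG, or CACGT or CACGC on the other strand, overlapping matches included) and, in the INHBA window, the CCAAT box (CCAAT, or ATTGG on the other strand). For TK1 and BNIP3, whose windows overlap annotated exons, only 30 bases around the first match are given. The exons are of another gene, AFMID, in the TK1 window shown, and of BNIP3 itself in the BNIP3 window.
TK1, chr17:78187334-78187363, minus strand: acagccgcatggGCGTGcgtccctctgttt
BNIP3, chr10:131982049-131982078, minus strand: acccgccccgcgCACGCgccgCACGTGcca
PM20D2, chr6:89145805-89146004, plus strand: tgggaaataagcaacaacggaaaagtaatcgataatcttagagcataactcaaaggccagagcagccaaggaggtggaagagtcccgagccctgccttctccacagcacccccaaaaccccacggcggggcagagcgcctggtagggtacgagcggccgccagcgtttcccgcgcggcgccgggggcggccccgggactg
INHBA, chr7:41703141-41703340, minus strand: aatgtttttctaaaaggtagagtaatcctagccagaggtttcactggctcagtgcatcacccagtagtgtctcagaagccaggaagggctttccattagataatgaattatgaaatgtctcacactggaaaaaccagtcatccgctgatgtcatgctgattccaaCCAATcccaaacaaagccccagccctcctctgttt

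The core letters of the hypoxia response element were in the windows of 1 of the 3 called genes (TK1) and of 6 of the 10 genes of the response to low oxygen. Some genes have several starts, and by window the letters were in 2 of 4 and 7 of 13, against 48.9% of the 9694 windows of tested genes and 35.6% of all 27305 windows. The CCAAT box was in 2 of 3 (TK1, from a nearer start, and INHBA) and 4 of 10 genes, or 2 of 4 and 5 of 13 windows, against 31.1% and 28.3% of windows. The PM20D2 window held neither set of letters. A match is a description of the letters and not a site of binding. The windows left out the bases nearest the start, so a missing match says nothing of sites there or further away. The background percentages took 1 window per gene, whereas the 4 and 13 windows counted every start, so they are not like for like.

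Few transcripts set post-hypoxic FaDu cells apart from non-hypoxic ones. Thymidine kinase TK1, the peptidase family member PM20D2, the long non-coding RNA LINC02582 and the RNA-binding protein IGF2BP1 were 1.5 to 2.49 times as high in post-hypoxic cells, and INHBA, the activin A subunit, was at 0.501 times its non-hypoxic level. In such bulk samples, fewer cells that make a transcript and less of it per cell cannot be told apart. With the 4 group means as the model, 0 of 12291 genes (0%) had an adjusted p under 0.05 by the quasi-likelihood test of edgeR (Benjamini-Hochberg), and the lowest adjusted p was 0.145. At an unadjusted p under 0.05 there were 298 genes (2.42%), 157 higher (1.28%) and 141 lower (1.15%), fewer than the 615 that chance alone gives at that threshold. DESeq2 called 3 genes, TK1, PM20D2 and LINC02582, and limma voom called 0.

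Replicate numbers 1 to 4 occur in both FaDu groups, and libraries with the same number deviated together from their group means, so the numbers were taken as pairs. A fit that blocked on the replicate number, line by line, called 7 genes by edgeR (0.057%), 4 higher (0.0325%) and 3 lower (0.0244%) in post-hypoxic cells. These were TK1, PM20D2, LINC02582 and IGF2BP1, and INHBA, PTMAP2 and MT-TS1. At an unadjusted p under 0.05 this fit had 743 genes (6.05%), 364 higher (2.96%) and 379 lower (3.08%). Leaving out a pair gave 6 calls without pair 1, 2 without pair 2, 0 without pair 3 and 5 without pair 4, so no gene was called in every such fit. The line-by-line block held for the SCC154 libraries as well, although their numbers were not taken as pairs, and both lines share its estimate of the spread. With the block in FaDu only, a fit chosen after seeing the data, 0 genes (0%) were called by edgeR (lowest adjusted p = 0.0869, for TK1, PM20D2 and MT-TS1) and 334 (2.72%) had an unadjusted p under 0.05. LINC02582, INHBA, IGF2BP1 and PTMAP2 had edgeR adjusted p-values of 0.183, 0.464, 0.647 and 1 there. With the block on FaDu replicates 1 to 4 alone, which uses no SCC154 library, 9 genes were called, the 7 above without MT-TS1 but with ISG15, RPS13 and the ribosomal pseudogene RPS12P26, whose reads are uncertain.

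TK1 (chr17:78174075-78187233, minus strand, GRCh38) encodes the cytosolic thymidine kinase, which salvages thymidine for DNA synthesis in cycling cells. Its level was 113, 119, 146 and 131 CPM in non-hypoxic replicates 1 to 4, and 150, 256, 224, 179 and 293 CPM in post-hypoxic replicates 1 to 5. The lowest post-hypoxic library, replicate 1, lay just above the highest non-hypoxic one, and all 4 pairs were higher after hypoxia, by 0.40, 1.09, 0.61 and 0.45 on the log2 scale. The non-hypoxic mean was 127 ± 14.6 CPM (SD, n = 4) and the post-hypoxic mean 220 ± 57.6 CPM (SD, n = 5), a log2 fold change of 0.79 (SE 0.147, 95% interval 0.49 to 1.1, edgeR adjusted p = 0.145). With the block it was 0.65 (SE 0.0986, edgeR adjusted p = 0.00678), and without post-hypoxic replicate 1 the unblocked fit called TK1 alone (edgeR adjusted p = 0.00726). With the block it was not called without pair 2 or pair 3, where the highest adjusted p was 0.132.

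The enzymes that TK1 works with were called in neither fit. Of 34 tested genes of nucleotide synthesis, 11 were higher and 23 lower, with a median log2 fold change of -0.05, against -0.00349 over all tested genes. RRM2, the small subunit of ribonucleotide reductase, had a log2 fold change of -0.05, TYMS, which makes thymidylate, -0.05, and DTYMK, the kinase that takes up the product of TK1, -0.01. None of the other 33 members was called either. In the list for G1/S and replication 13 of 40 members were higher and 27 lower (median -0.05), and among 35 genes of G2/M and mitosis 23 were higher and 12 lower (median 0.02). Within the replication list, CHAF1B, a subunit of the chromatin assembly factor that places histones on new DNA, measured 10.9, 18.7, 10.5 and 10.3 CPM in non-hypoxic and 15.8, 18.9, 17.7, 16.9 and 15.4 CPM in post-hypoxic libraries. Non-hypoxic replicate 2 had a level within the post-hypoxic range, and the other 3 were below it. PRIM2, the large primase subunit, had lower values in all 4 pairs (log2 fold change -0.27 in the unblocked fit, edgeR adjusted p = 1).

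PM20D2 (chr6:89146050-89165565, plus strand) belongs to the M20 family of peptidases. It measured 81.8, 64.9, 74.4 and 67.9 CPM in non-hypoxic and 129, 119, 98.1, 101 and 95.5 CPM in post-hypoxic libraries. The groups did not overlap, and the pair differences were of like size, 0.65, 0.87, 0.40 and 0.57 on the log2 scale. The means were 72.2 ± 7.48 CPM (SD, n = 4) in non-hypoxic and 109 ± 14.8 CPM (SD, n = 5) in post-hypoxic cells, and the log2 fold change was 0.59 (SE 0.118, 95% interval 0.34 to 0.83, edgeR adjusted p = 0.151), or 0.63 with the block (edgeR adjusted p = 0.00678). The blocked call held without pair 4 and was lost without pair 1, 2 or 3, over an adjusted p of 0.0407 to 0.180.

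LINC02582 (chr18:73324941-73349878, plus strand) is a long non-coding RNA whose function is not described here. It measured 18.1, 18.7, 9.98 and 9.17 CPM in non-hypoxic and 33.2, 30.8, 26.3, 30.1 and 53.7 CPM in post-hypoxic libraries. Every post-hypoxic library exceeded every non-hypoxic one, and replicate 5, which has no partner, was the highest. The log2 fold change was 1.3 (SE 0.254, 95% interval 0.77 to 1.82, edgeR adjusted p = 0.145), and 1.11 with the block (edgeR adjusted p = 0.0102). The blocked call held without pair 1 or pair 2 and was lost without pair 3 or pair 4, over an adjusted p of 0.0429 to 0.196.

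IGF2BP1 (chr17:48997412-49055650, plus strand) encodes an RNA-binding protein made in embryonic tissue and again in many tumours, which stabilises mRNAs such as that of MYC. Its level was 25.2, 12.2, 20.96 and 20.5 CPM in non-hypoxic and 36.0, 37.3, 30.9, 39.2 and 33.0 CPM in post-hypoxic libraries. The groups were apart in all libraries, and pair 2, with the lowest non-hypoxic value, differed most (1.54 on the log2 scale). The log2 fold change was 0.85 (SE 0.195, 95% interval 0.44 to 1.25, edgeR adjusted p = 0.485), and 0.88 with the block (edgeR adjusted p = 0.0266), a call that held without pair 1 and was lost without pair 2, 3 or 4 (adjusted p 0.0400 to 0.446). Of its relatives, IGF2BP3 had a log2 fold change of 0.19 (SE 0.142, edgeR adjusted p = 1) and IGF2BP2 of -0.01. The 3′ end of IGF2BP3 overlaps that of MALSU1, and without strand their reads cannot be told apart. Among 12 tested members of the list of the IGF2BP family and its oncofetal partners, 7 were higher and 5 lower, with a median of 0.02. PEG10, an imprinted retrotransposon-derived gene, was higher in 4 of 4 pairs at a log2 fold change of 0.27, but overlapped between the groups (73.6 to 101 against 74.8 to 136 CPM).

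INHBA (chr7:41667168-41705834, minus strand) encodes the βA chain that pairs with itself to form activin A, a ligand of the TGF-β family. It measured 19.97, 6.97, 16.5 and 19.4 CPM in non-hypoxic and 10.9, 3.68, 6.36, 8.25 and 10.1 CPM in post-hypoxic libraries. These levels rest on few counts, 42, 16, 33 and 36 in non-hypoxic and 20, 8, 14, 20 and 23 in post-hypoxic libraries. The groups overlapped, since replicate 2 was the lowest library of both, while within pairs the difference was alike, -0.82, -0.78, -1.26 and -1.15 on the log2 scale. The log2 fold change was -0.98 (SE 0.291, edgeR adjusted p = 1), and -1.11 with the block (SE 0.207, edgeR adjusted p = 0.0300), a call lost without any one of the 4 pairs (adjusted p 0.0862 to 0.490). Of 31 tested genes of activin and TGF-β signalling, 15 were higher and 15 lower (median 0), and the remaining member, SMAD4, had no count in FaDu. The activin antagonist FST had a log2 fold change of -0.04, the receptor ACVR1B of -0.10 and the signal carrier SMAD3 of -0.05.

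The remaining calls of the paired fit were of a pseudogene and a transfer RNA. PTMAP2 is a processed pseudogene of prothymosin α on chromosome 5. It has its 3′ end within the span of DTWD2, on the other strand, and its reads can be shared with PTMA or DTWD2. It measured 70.8, 68.4, 48.9 and 15.1 CPM in non-hypoxic and 45.8, 11.04, 11.4, 14.4 and 14.5 CPM in post-hypoxic libraries. Both groups thus held high and low libraries, and pair 4 differed by only -0.06 on the log2 scale. PTMA had a log2 fold change of -0.13 and DTWD2 of 0.27, both with an edgeR adjusted p of 1. MT-TS1, the mitochondrial serine transfer RNA, had counts in non-hypoxic replicate 3 alone of the 9 FaDu libraries (16.0 CPM), so that call rested on 1 library. Without pair 3 it had no FaDu counts left.

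**Figure D1:**
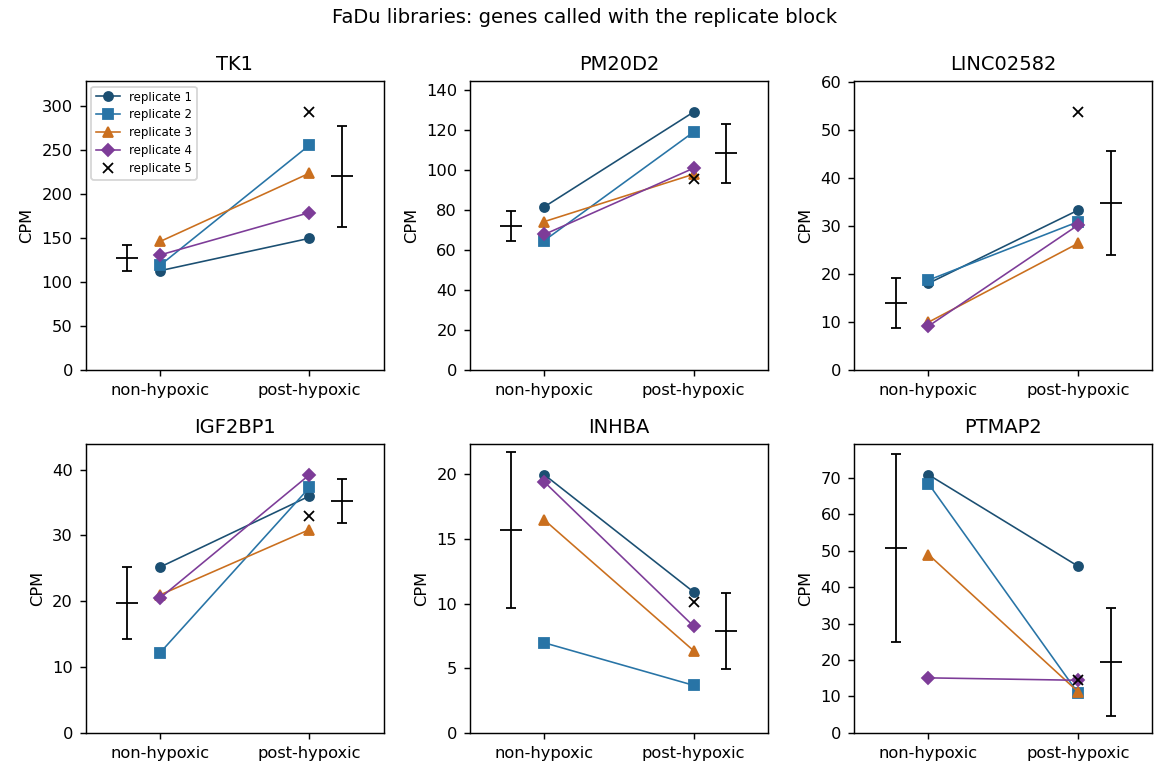
Level of 6 of the 7 genes called with the replicate block, in CPM, in each FaDu library; lines join same-numbered libraries, crosses mark the unpaired post-hypoxic replicate 5, and the bars beside the points give mean ± SD (n = 4 and n = 5). TK1, PM20D2, LINC02582 and IGF2BP1 are higher in every post-hypoxic library, whereas INHBA and PTMAP2 overlap between the groups.

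Over all tested genes, 131 (1.07%) did not overlap between the groups, 69 higher (0.561%) and 62 lower (0.504%) in post-hypoxic cells, and 1983 (16.1%) moved one way in 4 of 4 pairs, 949 higher (7.72%) and 1034 lower (8.41%). With 4 and 5 libraries some genes meet such conditions by chance, and that share was not computed. Among the 9168 genes with a mean of at least 10 CPM in FaDu, 55 (0.6%) met both conditions upward and 49 (0.534%) downward. The 10 of lowest unadjusted p in each direction are named here as a description, since their selection used these libraries. Upward they were TK1, LINC02582, PM20D2, ARFGEF3, IGF2BP1, HIBADH, UNKL, ARMCX3, SUCLA2 and SHKBP1. ARFGEF3 (chr6:138161921-138344663, plus strand) measured 10.5, 11.3, 5.49 and 11.9 CPM in non-hypoxic and 16.3, 15.6, 17.3, 19.4 and 23.8 CPM in post-hypoxic libraries. It was not called in either fit (edgeR adjusted p = 0.359, and 0.516 with the block).

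HIBADH and SUCLA2 encode mitochondrial enzymes, of valine breakdown and of the citric acid cycle. SUCLA2 measured 31.9, 31.4, 28.95 and 30.7 CPM in non-hypoxic and 39.8, 44.6, 42.2, 38.8 and 36.5 CPM in post-hypoxic libraries, a log2 fold change of 0.39 (SE 0.124, edgeR adjusted p = 1). Both groups were tight and lay apart. HIBADH measured 5.66 to 9.17 CPM against 11.04 to 15.4 CPM, close to the depth limit. UNKL measured 13.9 to 21.96 against 24.4 to 30.4 CPM, and its 3′ end overlaps that of GNPTG. ARMCX3 measured 16.5 to 21.6 against 24.4 to 32.1 CPM and SHKBP1 14.3 to 17.9 against 20.2 to 30.4 CPM. None of these 5 was called in either fit.

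Downward the genes were SUCO, HDAC8, RPS18P9, CFAP44, ZNF839, PPP1R26-AS1, ZNF354A, SLC2A4RG, SETD3 and GOLPH3L. SUCO, a protein of the endoplasmic reticulum membrane, measured 81.8, 88.0, 73.9 and 75.5 CPM in non-hypoxic and 68.1, 60.3, 68.6, 59.4 and 55.9 CPM in post-hypoxic libraries (log2 fold change -0.36, edgeR adjusted p = 1). HDAC8, a class I histone deacetylase that also acts on cohesin, measured 39.5, 46.2, 44.4 and 35.1 CPM against 27.8, 32.2, 25.9, 29.3 and 34.8 CPM (log2 fold change -0.46, edgeR adjusted p = 1). The gap between the groups was small in both genes, and in HDAC8 non-hypoxic replicate 4 and post-hypoxic replicate 5 nearly touched. SETD3, the actin histidine methyltransferase, measured 100 to 110 CPM against 82.8 to 96.4 CPM, and SLC2A4RG, a transcription factor named for the GLUT4 gene, 447 to 507 CPM against 382 to 435 CPM. GOLPH3L, a Golgi protein, measured 70.6 to 80.1 CPM against 51.9 to 67.7 CPM. RPS18P9 is a pseudogene of a ribosomal protein gene, and the 3′ end of ZNF839 overlaps that of CINP, so both are uncertain. None of the 10 was called in either fit.

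No gene of the classical HIF response passed the test in the reoxygenated cells. Of 12 such genes fixed for naming, 4 had a log2 fold change above 0 and 8 below it, between -0.36 (ADM) and 0.28 (VEGFA), and each had an edgeR adjusted p of 1. All 12 overlapped between the groups. The 95% interval of the change lay below 1, a doubling, for 11 of the 12 genes, ANKRD37 with few counts being the exception, and with the block for all 12. It lay above -1, a halving, for 10 of the 12, and with the block for all 12. The exceptions were EGLN3 and NDRG1, with lower bounds of -1.21 and -1.18.

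CA9, the membrane carbonic anhydrase used as a marker of hypoxia, measured 7.61, 9.15, 6.49 and 8.63 CPM in non-hypoxic and 2.18, 11.5, 11.8, 8.25 and 10.6 CPM in post-hypoxic libraries. Post-hypoxic replicate 1 was the lowest of the 9, and pairs 1 and 4 were lower and pairs 2 and 3 higher after hypoxia (log2 fold change 0.17, 95% interval -0.59 to 0.93). VEGFA, the growth factor of endothelial cells, measured 67.5, 98.4, 89.3 and 103 CPM and 75.2, 122, 122, 93.7 and 131 CPM. It was higher in 3 of 4 pairs, with a log2 fold change of 0.28 (95% interval -0.21 to 0.78). NDRG1, a stress-response gene that varied widely within both groups, measured 54.7, 110, 40.4 and 80.3 CPM and 21.8, 81.5, 59.5, 44.6 and 104 CPM (log2 fold change -0.19, 95% interval -1.18 to 0.80). SLC2A1, the glucose transporter GLUT1, measured 131, 233, 174 and 251 CPM and 132, 226, 221, 218 and 176 CPM, with a log2 fold change of -0.02 (95% interval -0.37 to 0.33).

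BNIP3, a mitophagy receptor, was lower in 4 of 4 pairs. It measured 43.3, 62.3, 49.4 and 48.0 CPM in non-hypoxic and 33.2, 51.1, 43.1, 37.6 and 43.6 CPM in post-hypoxic libraries, with pair differences of -0.37, -0.28, -0.19 and -0.35 on the log2 scale. LDHA, the lactate dehydrogenase subunit, measured 341, 540, 391 and 478 CPM and 327, 412, 382, 393 and 404 CPM, also lower in 4 of 4 pairs. ADM, the vasodilator peptide adrenomedullin, measured 53.7, 98.9, 50.4 and 66.3 CPM and 37.1, 59.4, 45.9, 66.5 and 52.4 CPM, lower in pairs 1 to 3 and level in pair 4. With the block the unadjusted 95% interval was below 0 for these 3 of the 12 genes, ADM (-0.61 to -0.11), LDHA (-0.38 to -0.02) and BNIP3 (-0.58 to -0.02), while the lowest adjusted p among the 12 was 0.684. PDK1, KDM3A, EGLN3, P4HA1 and ANKRD37 had log2 fold changes of -0.07, -0.13, -0.14, 0.10 and 0.24, and the 3′ end of ANKRD37 overlaps that of UFSP2. Of the 12 genes, 2 were lower and 0 were higher in 4 of 4 pairs, against 8.41% and 7.72% of all tested genes.

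**Figure D2:**
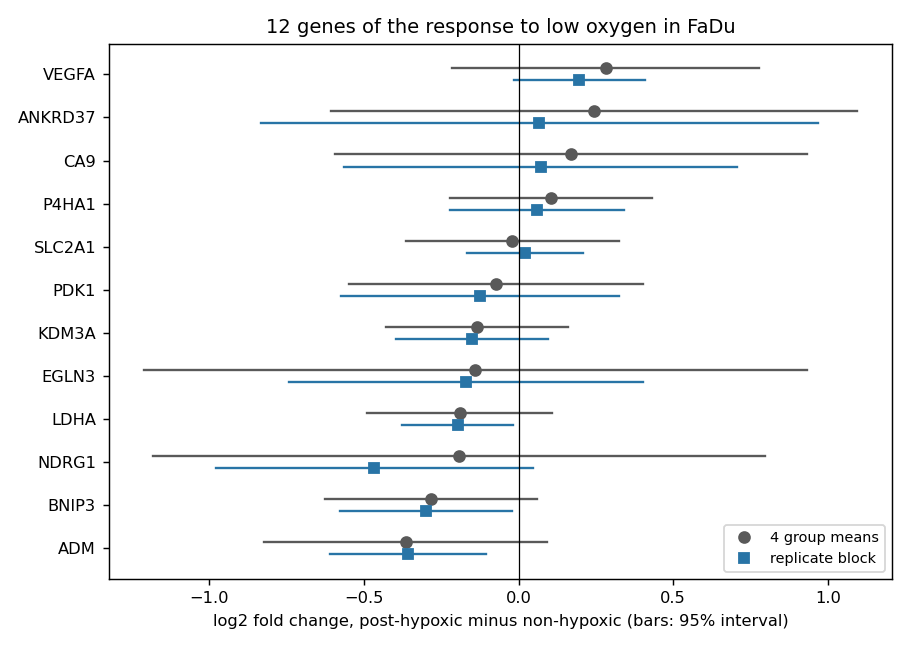
Log2 fold change (post-hypoxic minus non-hypoxic) of 12 genes of the response to low oxygen in FaDu, with 95% intervals, from the model of 4 group means (circles) and with the replicate block (squares). All 12 grey intervals cross 0, and the blue intervals of LDHA, BNIP3 and ADM lie below it.

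The wider list of HIF targets had 27 tested members, 11 higher and 16 lower, with a median log2 fold change of -0.06, against 48.5% higher over all tested genes. By pair, the list median was -0.29, -0.28, 0.25 and -0.11, so that pair 3 went the other way. Leaving out single libraries moved it from -0.14 to 0.10, and it was above 0 without non-hypoxic replicate 2 or post-hypoxic replicate 1. In that list 5 members were lower and 0 higher in 4 of 4 pairs, against 8.41% and 7.72% of all tested genes. With the block 6 were lower and 0 higher at an unadjusted p under 0.05, against 3.08% and 2.96%, and 0 were called. ANGPTL4, a regulator of lipoprotein lipase (log2 fold change -0.94, 7.81 ± 3.21 CPM, SD, n = 4, against 4.00 ± 1.62 CPM, SD, n = 5), and PFKFB4, of glycolytic control (-0.71), both under 10 CPM, were lower in every pair. So was HK2, the first enzyme of glycolysis, which measured 33.3, 42.3, 42.9 and 56.6 CPM against 27.3, 28.1, 36.8, 46.2 and 33.4 CPM. Of 22 genes of glycolysis, 8 were higher and 14 lower (median -0.02). Of 16 genes of oxygen sensing, 10 were higher and 6 lower (median 0.04), and ARNT, the partner of HIF-α, had a log2 fold change of 0.28 (edgeR adjusted p = 1), being higher in 4 of 4 pairs.

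None of the 26 pathway lists had a member called in the unblocked fit, and with the block within each line the called members were TK1, IGF2BP1 and INHBA. With the block on FaDu replicates 1 to 4 alone, ISG15 of the interferon list and RPS13 of the ribosomal list (log2 fold change -0.28, edgeR adjusted p = 0.747 with the block within each line) were called as well. In 15 of the 26 lists the median was above 0. The list of MHC class I presentation, which loads peptides onto HLA molecules for T cells, had 12 of 14 tested members higher, and its median was 0.12, with pair medians of 0.15, 0.15, 0.11 and 0.08. With the block 6 of the 14 were higher at an unadjusted p under 0.05, against 2.96% of all tested genes, and 0 were lower. In 4 of 4 pairs 6 were higher and 1 lower, against 7.72% and 8.41% of all tested genes. HLA-E, a ligand of natural killer cell receptors, measured 117, 89.3, 131 and 167 CPM in non-hypoxic and 148, 142, 174, 174 and 130 CPM in post-hypoxic libraries. TAP1, the peptide transporter, measured 45.2, 54.0, 38.9 and 32.4 CPM against 50.1, 60.7, 52.2, 56.1 and 48.4 CPM, and PSMB9, an immunoproteasome subunit, 79.9, 91.9, 73.9 and 63.6 CPM against 101, 116, 79.5, 82.1 and 84.0 CPM. All 3 were higher in every pair and overlapped between the groups (log2 fold changes 0.29, 0.32 and 0.25, edgeR adjusted p = 1 each). TAP1 lies within the span of PSMB9 on the other strand, PSMB8-AS1 (22.3 CPM in FaDu) also covers its 3′ end, and these genes may share reads. The median was 0.10 to 0.17 when single libraries were left out and 0.06 with no filter on low counts.

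Among 34 interferon-stimulated genes, 21 were higher and 13 lower, with a median of 0.05 and pair medians of 0.08, 0.12, 0.18 and 0.14. With the block 9 were higher at an unadjusted p under 0.05 and 0 lower, against 2.96% and 3.08% of all tested genes, and 12 were higher and 3 lower in 4 of 4 pairs, against 7.72% and 8.41%. ISG15, a ubiquitin-like modifier, was higher in 4 of 4 pairs (log2 fold change 0.33, edgeR adjusted p = 1, and 0.208 with the block within each line) and was called with the block on FaDu replicates 1 to 4 alone. IFITM3, a membrane protein that blocks virus entry, measured 58.9, 50.96, 36.4 and 32.9 CPM in non-hypoxic and 69.8, 72.2, 53.6, 56.1 and 42.7 CPM in post-hypoxic libraries. Replicates 1 and 2 were high in both groups, and each pair was higher after hypoxia (log2 fold change 0.38, edgeR adjusted p = 1). IFI35 measured 14.3, 10.02, 14.5 and 8.09 CPM against 19.1, 17.9, 16.4, 11.6 and 16.3 CPM. The list's median was below 0 without non-hypoxic replicate 3, non-hypoxic replicate 4 or post-hypoxic replicate 1, and ranged from -0.03 to 0.21.

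The 13 mitochondrially encoded messenger RNAs were all on the lower side, between -0.27 (MT-CYB) and -0.04 (MT-CO2), with a median of -0.13, and 10 of the 13 were lower in 4 of 4 pairs, against 8.41% of all tested genes. MT-CYB, which encodes cytochrome b of complex III, measured 1156, 1364, 842 and 722 CPM in non-hypoxic and 1099, 846, 727, 712 and 841 CPM in post-hypoxic libraries. MT-ND3, a subunit of complex I, measured 1672, 1753, 1436 and 1345 CPM against 1536, 1389, 1281, 1259 and 1543 CPM. Non-hypoxic replicates 1 and 2 were the highest of their group in both genes, and the groups overlapped. Of 35 nuclear genes of the respiratory chain, 18 were higher and 17 lower (median 0.000134). The 74 ribosomal protein genes were lower in 58 cases and higher in 16 (median -0.05), RPL14 being lowest in unadjusted p (455 to 492 CPM in non-hypoxic replicates 1 to 3 and 393 in replicate 4, against 357 to 416 CPM). Their pair medians were 0.09, -0.07, -0.05 and -0.12, so that pair 1 went the other way. In 4 of 4 pairs 9 of the 74 were lower and 1 higher, against 8.41% and 7.72% of all tested genes. Without single libraries the median ran from -0.149 to -0.009. In the same libraries the shares of mitochondrial ribosomal RNA, of MALAT1 and NEAT1 and of the 10 most abundant genes were each lower in the post-hypoxic member of 4 of 4 pairs, and their part in these results was not tested.

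Lists of cell state showed shifts of similar size. Of 31 genes of the unfolded protein and integrated stress response, 21 were higher (median 0.11). SLC7A11, the cystine transporter, measured 35.7, 45.3, 56.9 and 46.4 CPM in non-hypoxic and 34.9, 66.3, 90.4, 58.2 and 80.1 CPM in post-hypoxic libraries, and HERPUD1, of endoplasmic reticulum protein disposal, 43.3, 61.4, 52.9 and 46.9 CPM against 37.1, 81.9, 74.9, 69.3 and 71.3 CPM. In both genes post-hypoxic replicate 1 lay below the lowest non-hypoxic library, and the other 4 post-hypoxic libraries lay above the highest. Of 21 YAP/TEAD targets 15 were higher and 4 lower (median 0.13), and of 23 matrix proteases and inhibitors 17 were higher and 6 lower (median 0.11). The pair medians of the YAP/TEAD targets were 0, 0.305, 0.02 and 0.04, so that pair 2 lay far above the others. The matrix median was 0.02 without post-hypoxic replicate 4, and that of the stress response was 0.04 to 0.07 without non-hypoxic replicate 1 or 2 or post-hypoxic replicate 2, 3 or 4. MMP14, a membrane-anchored collagenase, measured 182, 142, 171 and 173 CPM against 183, 215, 190, 199 and 238 CPM (log2 fold change 0.30, edgeR adjusted p = 1).

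Basal keratinocyte and squamous lineage genes were higher in 15 of 20 cases (median 0.05). KRT14, a keratin of basal cells, measured 19.97, 18.7, 20.96 and 34.5 CPM in non-hypoxic and 27.3, 34.1, 37.2, 39.6 and 33.0 CPM in post-hypoxic libraries (log2 fold change 0.55, SE 0.189, edgeR adjusted p = 1). Its partner KRT5 measured 175, 191, 195 and 223 CPM against 203, 229, 242, 278 and 240 CPM (log2 fold change 0.28, SE 0.106, edgeR adjusted p = 1). Both were higher in all 4 pairs, and in both non-hypoxic replicate 4, the highest of its group, reached into the post-hypoxic range. In the same list DST, which anchors keratin filaments, and TFAP2C, a transcription factor, were lower in 4 of 4 pairs (log2 fold changes -0.21 and -0.23), and with the block 4 members were higher and 2 lower at an unadjusted p under 0.05. BMI1, a Polycomb protein in the list of stem-cell markers, measured 9.03, 13.9, 17.0 and 19.4 CPM against 19.1, 20.3, 30.4, 31.8 and 13.6 CPM, higher in 4 of 4 pairs, while post-hypoxic replicates 1 and 5 lay within the non-hypoxic range. That list as a whole had 5 members higher and 8 lower (median -0.05), and epithelial-mesenchymal transition had 12 higher and 9 lower (median 0.01).

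**Figure D3:**
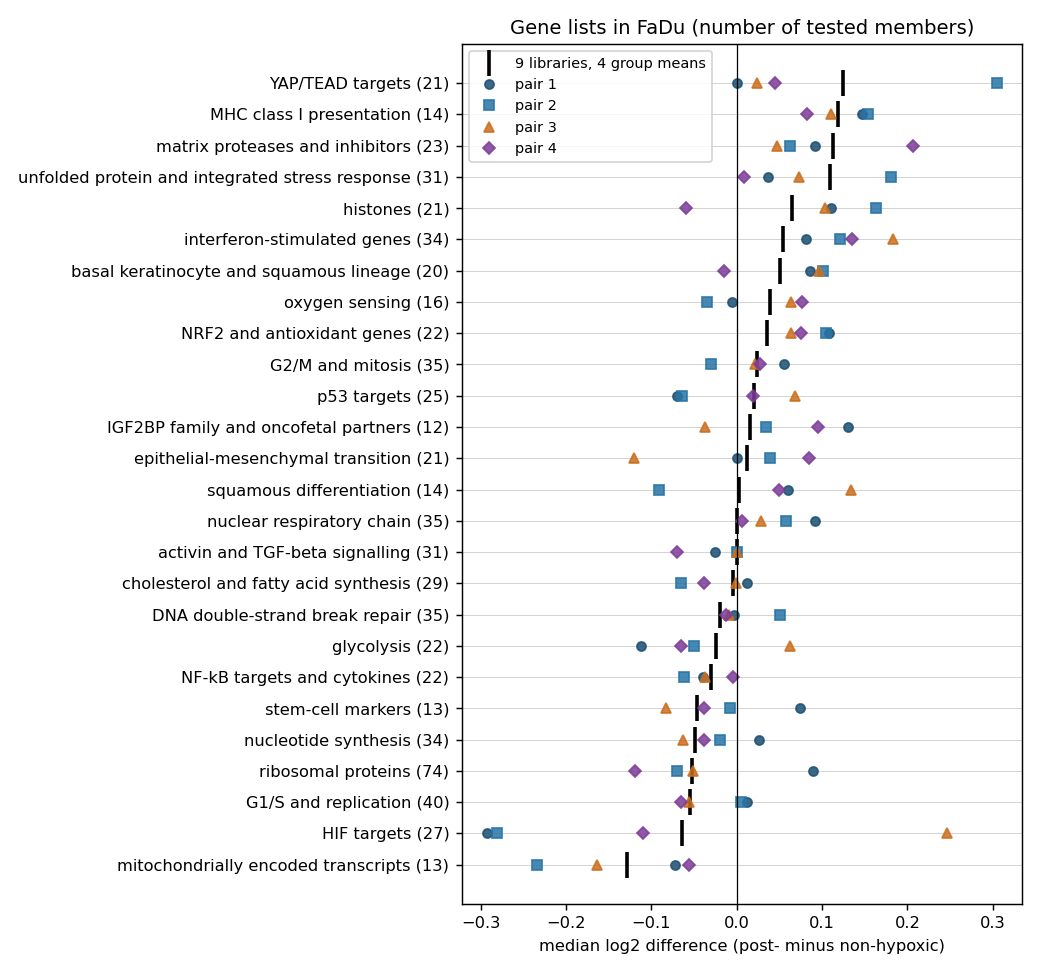
Median log2 difference of the tested members of 26 gene lists in FaDu, from all 9 libraries (black bars) and within each same-numbered pair (coloured points), with the number of tested members in brackets. HIF targets spread from -0.29 to 0.25 over the pairs, whereas MHC class I presentation stays between 0.08 and 0.15 and the mitochondrially encoded transcripts stay below 0.

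The measured differences of the pairs were weakly correlated. Each compares single libraries, so sampling noise lowers their correlation, and its part was not computed. Across 9168 genes, the log2 differences of any 2 pairs correlated at 0.022 to 0.14 (6 comparisons, given as a description, since genes are not independent replicates). The SD of the differences within a pair was 0.284, 0.324, 0.275 and 0.252. A change of at least 2-fold was seen upward for 26, 43, 21 and 17 genes and downward for 17, 23, 22 and 14 genes in pairs 1 to 4. In at least 2 pairs such a change was shared by 10 genes upward and 8 downward, and in at least 3 pairs by 0 in either direction. The median standard error of a log2 fold change was 0.159 for genes of at least 10 CPM, and 0.124 with the block.

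By chromosome, the X had 137 of 384 tested genes higher (35.7%), with a median of -0.06, and was lower in each pair (-0.04, -0.07, -0.03 and -0.0038). Chromosome 13 had 85 of 231 genes higher (36.8%, median -0.04), also lower in each pair. Chromosome 18 had 101 of 174 genes higher (58%, median 0.03) and chromosome 19 had 473 of 824 (57.4%, median 0.03), with pair medians of 0.054, 0, 0.01 and 0 on chromosome 19. The medians on chromosomes 1 to 22 lay between -0.04 and 0.03. In SCC154 cells the X median of the same contrast was 0.04.

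**Figure D4:**
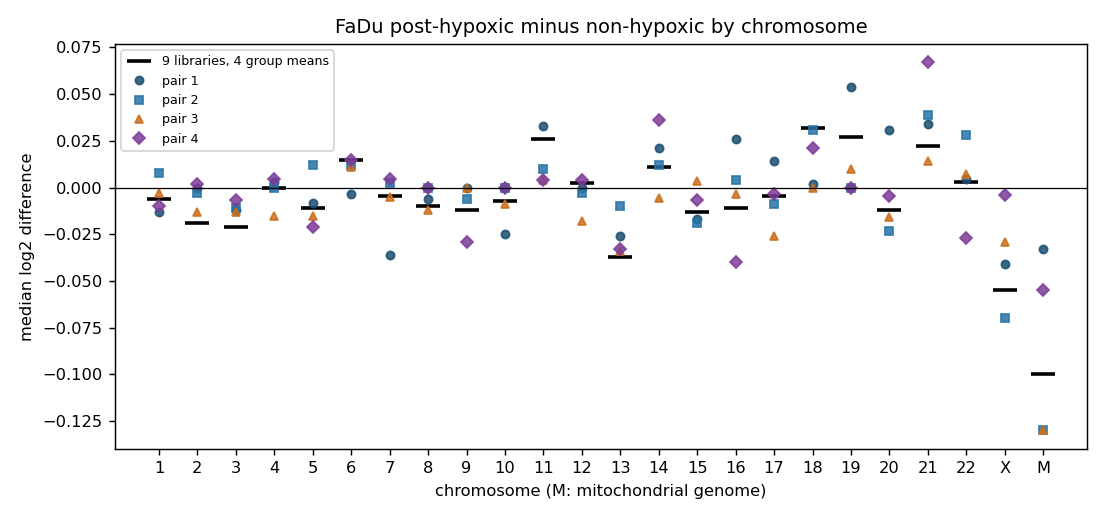
Median log2 difference between post-hypoxic and non-hypoxic FaDu cells by chromosome, from all 9 libraries (black bars) and within each pair (points). Chromosome X, chromosome 13 and the mitochondrial genome lie below 0 in all 4 pairs, as does chromosome 3 at a smaller distance.

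None of the genes that stood out in FaDu was called as different between the lines in the unblocked fit. They had been chosen by their FaDu values, which limits a comparison of the post-hypoxic minus non-hypoxic contrast with that of SCC154. The same contrast called 93 genes (0.757%) in SCC154, and the difference of the contrast between the lines, tested as an interaction, called 2 genes (0.0163%), CALD1 and NFIB, named here because the count is small. Both fell in post-hypoxic SCC154 cells (log2 fold changes -1.98 and -1.14) while their FaDu values were 0.06 and 0.26. With the block within each line 224 genes (1.82%) were called. That fit treats the SCC154 numbers as pairs, although same-numbered SCC154 libraries correlated unevenly, at 0.036 to 0.50. With the block in FaDu only there were 6 (0.0488%). Values with the block within each line below are given with those of the block in FaDu only. TK1 had a log2 fold change of -0.09 (SE 0.149) in SCC154, with means of 119 ± 10.5 CPM (SD, n = 5) in non-hypoxic and 111 ± 9.58 CPM (SD, n = 4) in post-hypoxic cells, and its interaction was 0.89 (SE 0.209, edgeR adjusted p = 0.205, 0.00838 with the block within each line and 0.124 with it in FaDu only). PM20D2 and IGF2BP1 had values of -0.15 and -0.14 in SCC154, with interactions of 0.74 and 0.99 (edgeR adjusted p = 0.196 and 0.235, 0.0104 and 0.0178 with the block within each line, and 0.0888 and 0.204 with it in FaDu only). INHBA was far higher in SCC154, at 433 ± 55.1 CPM (SD, n = 5) in non-hypoxic and 348 ± 65.1 CPM (SD, n = 4) in post-hypoxic cells, and its log2 fold change was -0.32 there, an interaction of -0.67 (edgeR adjusted p = 0.528). LINC02582 was near the depth limit in SCC154 (3.69 ± 1.98 and 1.89 ± 0.476 CPM). BNIP3, ADM and VEGFA had opposite signs in the lines, -0.28, -0.36 and 0.28 in FaDu against 0.46, 0.25 and -0.48 in SCC154, and their unblocked interactions were not called (edgeR adjusted p = 0.321, 0.500 and 0.484), while BNIP3 (0.0491) and VEGFA (0.00317) were with the block within each line, and were not with it in FaDu only (0.243 and 0.474). IGF2BP3 fell in post-hypoxic SCC154 cells (log2 fold change -0.92, edgeR adjusted p = 0.0248) against 0.19 in FaDu, with an interaction of 1.11 (edgeR adjusted p = 0.134, 0.00160 with the block within each line and 0.0422 with it in FaDu only).

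**Figure D5:**
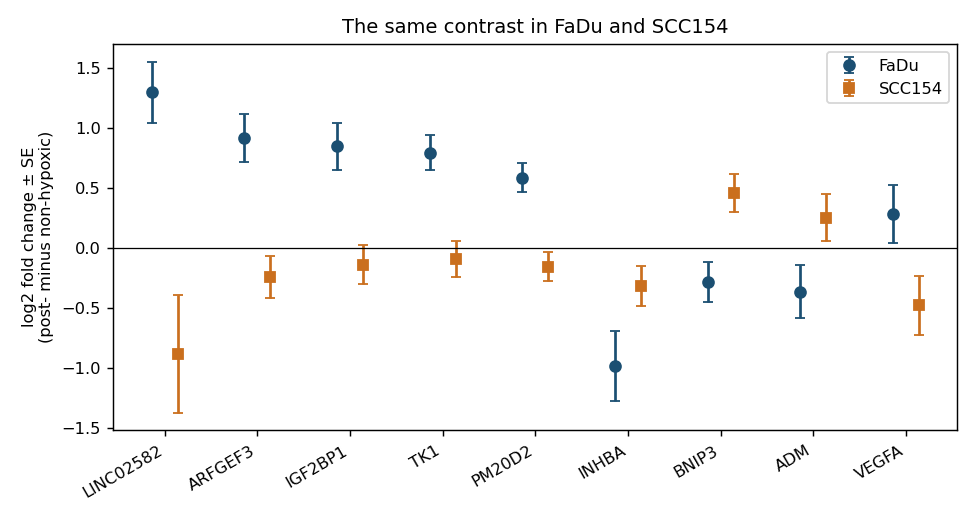
Log2 fold change ± SE (post-hypoxic minus non-hypoxic) of 9 genes in FaDu (circles) and SCC154 (squares), from the model of 4 group means. The 5 genes on the left lie above 0 in FaDu and below 0 in SCC154. None of the 5 was called in SCC154, where the bars of TK1 and IGF2BP1 cross 0. INHBA lies below 0 in both lines, and BNIP3, ADM and VEGFA have opposite signs.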

How the data were processed

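Messenger RNA of 18 libraries was measured with a 3′ tag kit, and the 9 FaDu libraries are described here. The authors deposited 1 table of whole-number counts per gene symbol (41120 symbols, 22591 with a count). Per the submitters' processing notes, the tools were HISAT2 2.2.1 for hg38, featureCounts 1.5.1, UMI-tools 1.1.5, Trimmomatic 0.39, FastQC 0.11.9 and DESeq2. Their order and settings, the annotation and the strand setting are not given in the labels, so overlapping genes cannot be told apart and close copies are uncertain. Whether duplicates were removed is likewise unknown.

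From the deposited counts, edgeR 4.0.16 (R 4.3.3) fitted a quasi-likelihood model with TMM factors and 4 group means over all 18 libraries, which share 1 estimate of the spread, after filterByExpr, which left 12291 genes; residual degrees of freedom were 14 and the common coefficient of variation was 0.148. A gene was called at a Benjamini-Hochberg adjusted p under 0.05. Levels are CPM over TMM-scaled library sizes, not corrected for transcript length, and pair differences are of log2 CPM with a prior count of 2. Within-group FaDu libraries differed by 1.77 to 8.21 times the sampling noise (chi-square per degree of freedom), so each counted as 1 sample.

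The FaDu replicate numbers were taken as pairs from the data: deviations from the group means of same-numbered libraries correlated at 0.66, 0.31, 0.27 and 0.57 over 9168 genes, and 3 of 4 numbers correlated best with themselves. The SCC154 numbers 2 to 5 correlated at 0.036, 0.47, 0.50 and 0.22 over 9551 genes and were not taken as pairs. The values for SCC154 numbers 3 and 4 exceeded those of FaDu numbers 2 and 3. For SCC154 no comparison with other numbers was made. The block within each line, set as an alternative, blocks both lines all the same and left 6 residual degrees of freedom. A block in FaDu only, with 10, and leaving out a pair under the block were added after seeing the data. In the report, "with the block" alone means the block within each line. The labels do not say what a number marks.

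Named genes were those called in either fit, up to 10 per direction of lowest unadjusted p with at least 10 CPM, no overlap and 4 of 4 pairs alike, 12 hypoxia-response genes whatever their result, and up to 3 members of each of 26 lists; other list members, PTMA, DTWD2, CALD1 and NFIB are given as context, chosen after their values were seen. Y-linked genes were not named. The value of 1 gene is not reported here. The comparison, the lists and the rule were chosen with earlier results of these data known. Alternatives were RLE and upper-quartile factors, DESeq2 1.42.0, limma 3.58.1 (voom), other filters, FaDu libraries alone, blocks, and leaving out each library. The test was tried on simulated data. Positions are from GENCODE v29 (GRCh38), matched by symbol for 36184 of the symbols.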

Additional observations from a re-analysis of the deposited data

Results flagged for a closer look

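Of 124 groups of FaDu libraries checked (62 named genes in 2 groups), 8 held a library far from the others, where about 6.2 are expected by chance at 5%. Post-hypoxic replicate 1 was such a library for HERPUD1 (37.06 CPM, the others 69.34 to 81.91), KDM3A (38.69 CPM, the others 57.63 to 62.21), MT-ND2 (871.4 CPM, the others 613.9 to 681.5) and PTMAP2 (45.78 CPM, the others 11.04 to 14.52). Post-hypoxic replicate 5 was one for LINC02582 (53.67 CPM, the others 26.34 to 33.24). Among non-hypoxic libraries they were replicate 2 for CHAF1B (18.73 CPM, the others 10.25 to 10.93), replicate 4 for KRT14 (34.51 CPM, the others 18.73 to 20.96) and replicate 3 for MT-TS1 (15.97 CPM, the others 0).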

How the results depend on the processing

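The count of called FaDu genes, 0, was also 0 with RLE or upper-quartile factors, limma voom, a minimum of 10 CPM, FaDu libraries alone, a replicate block shared across the lines, a replicate block in FaDu only, and replicates 1 to 4 without a block. DESeq2 gave 3, a fit without the low-count filter gave 10 (6 higher, 4 lower), and it was 0 to 1 when single libraries were left out, the 1 being TK1 without post-hypoxic replicate 1. With the replicate block within each line it was 7, with the block on FaDu replicates 1 to 4 alone 9 (without MT-TS1 and with ISG15, RPS12P26 and RPS13), and with the block and without pair 1, 2, 3 or 4 it was 6, 2, 0 and 5. Genes that differed between the lines numbered 2, 224 with the block within each line and 6 with the block in FaDu only. The share of genes without overlap (0.859% to 1.24%), that moving one way in 4 of 4 pairs (11.4% to 16.9%) and the number of lists with a median above 0 (12 to 18 of 26) stayed within 1.5 times. Single list medians were less steady: 14 of the 26 lists had a median of another sign in some setting, in 85 of 650 combinations of a list and a setting, a median of 0 counting as a sign of its own. Of 1538 combinations of a gene and a setting over 62 genes, 27 changed sign or came to 0, among them 1 of MT-TS1, which the block within each line calls. SLC2A1 became 0.003452 with voom, 0.02113 with the block within each line, 0.02996 with the shared block, 0.02304 with the block in FaDu only, and 0.02749 and 0.02369 on replicates 1 to 4 with and without a block; without a pair under the block it was 0.02451 to 0.1129 (0.02451, 0.05062 and 0.1129), and -0.1715 to 0.1149 without single libraries. Without single libraries EGLN3 ran from -0.4603 to 0.5856, NDRG1 from -0.4447 to 0.1027, PDK1 from -0.2535 to 0.1003 and ANKRD37 from -0.03911 to 0.6932. MT-TS1 ran from -6.523 to 0, the 0 without non-hypoxic replicate 3. Under the block, PDK1 was 0.1972 and ANKRD37 -0.173 without pair 1, CA9 -0.04516 without pair 2, and ANKRD37 -0.1049 and CA9 -0.2168 without pair 3. The cause of these changes was not tested. Medians by chromosome arm were not run. At about 2 counts per CPM, genes under 10 CPM rest on few counts.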
